A study of Homo sapiens with 11 samples.

Results

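The effect of ISRIB was described in HEK293T cells that also received the compound A8. HEK293T is an established line from human embryonic kidney with the large T antigen of SV40. The comparison rests on 6 of the 11 libraries of the series, chosen by their treatment labels: 3 of cells given 10 µM A8 together with ISRIB, and 3 of cells given 10 µM A8 without it. The other 5 libraries, 2 with ISRIB alone and 3 with the vehicle DMSO, show what ISRIB did without A8 and where the untreated level lay. The submitters excluded replicate 2 of ISRIB alone for poor quality, and the labels give no dose of ISRIB. The numbers of the 2 ISRIB alone count columns differ from those in the titles. These libraries were therefore assigned to the group only, and whether the excluded replicate is among them cannot be told from the labels. The time of treatment is uncertain, since titles state 8 h and the treatment protocol 4 h. The design text calls the replicates biological. A8 is known here by its code name, and the series title ties it to the antiviral RNA sensor RIG-I and the integrated stress response.

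The integrated stress response starts when a stress kinase phosphorylates the translation factor eIF2. Phosphorylated eIF2 blocks its own exchange factor, eIF2B, so that most translation slows while the transcription factor ATF4 is made in larger amounts. ATF4 then switches on genes for amino acid uptake, amino acid synthesis, tRNA charging and, under longer stress, cell death. ISRIB binds eIF2B and holds it in its active assembly, which blunts the response downstream of the kinases. The question of the comparison is which transcripts ISRIB altered in cells exposed to A8.

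The 6 libraries held 34072107 to 35318111 counts each, with 17892 to 18016 genes detected. Levels are given in CPM, which divides each count by its library's scaled total, and a gene was called at a Benjamini-Hochberg adjusted p under 0.05 in edgeR's quasi-likelihood test over all 15591 genes tested. All 9 markers of HEK293 cells, among them PAX2, VIM and GATA3, were detected. Their summed levels were 957 to 1055 CPM in the A8 with ISRIB libraries and 1007 to 1040.4 CPM in the A8 libraries. Most of each sum was VIM, with 671 to 738 CPM in the A8 with ISRIB libraries and 714 to 755 CPM in the A8 libraries. Of 14 defining genes of blood, liver, muscle, fibroblast, endothelial and glomerular cells, 6 were at 0 in every A8 with ISRIB library and 4 in every A8 library, and the list summed to 19.6 to 20.5 CPM with A8 and ISRIB and to 17.5 to 19.9 CPM with A8. A8 with ISRIB replicate 3 stood apart from its replicates, with a chi-square per degree of freedom of 36.1 and 22.6 against them, where the other pairs within both groups had 7.21 to 14.2. Its 50 most abundant genes took 23.9% of the counts, more than in any other library.

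ISRIB lowered a compact set of genes of amino acid supply and stress signalling in A8-treated cells, and raised a few heat shock chaperones. In all, 25 genes fell and 3 rose, which is 0.16% and 0.0192% of the genes tested. The largest falls were those of CHAC1, which breaks down glutathione, the glycine transporter SLC6A9, the stress regulator NUPR1, the mTORC1 inhibitor DDIT4, the mitochondrial PEP carboxykinase PCK2 and the transcriptional repressor JDP2, each at least 2-fold lower with ISRIB. The median log2 fold change of the 25 was -0.75, with a range of -2.05 to -0.30, beside a median of -0.00085 over all genes tested. The genes that rose were HSPA1A, HSPA1B and DNAJB1. Most of the transcriptome moved little: over all genes tested, called ones included, 95% had log2 fold changes between -0.60 and 0.46. Of the 10941 genes whose log2 CPM averaged at least 2, 35 exceeded 0.5 in size, and called genes are among these.

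**Figure D1:**
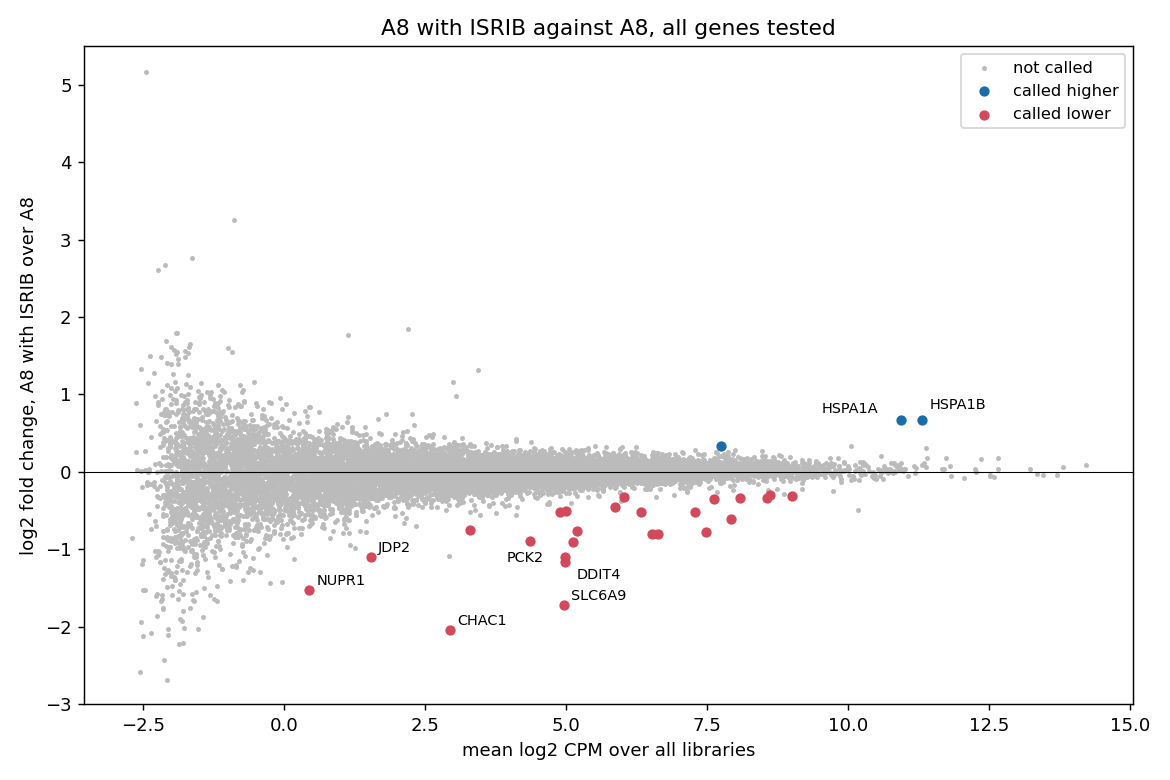
Each point is one of the 15591 genes tested, with the mean log2 CPM over all 11 libraries on the horizontal axis and the log2 fold change of A8 with ISRIB over A8 on the vertical axis. Red points are the 25 genes called lower, with names on those at least 2-fold lower, and those with smaller falls lie at the edge of or among uncalled genes. HSPA1A and HSPA1B, among the 3 called higher, are abundant transcripts.

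In each of the 28 called genes the 3 A8 with ISRIB libraries did not overlap the 3 A8 libraries. Lack of overlap alone was common, since 5.98% of all genes lay wholly lower and 5.09% wholly higher with ISRIB, and 921 genes (5.91%) had an unadjusted p under 0.05. The calls therefore rest on the fit across genes. When each of the 6 libraries was left out in turn, 16 of the 28 calls held in all 6 fits, and no called gene changed sign. The number of genes that fell was 14 without A8 replicate 1, between 17 and 23 without A8 with ISRIB replicate 1 or 2 or A8 replicate 2 or 3, and 29 without A8 with ISRIB replicate 3. The last of these fits, without the library that stood apart, kept 26 of the 28 calls and lost NUPR1 and SLC1A4, with adjusted p of 0.061 and 0.137. In whole cultures, fewer responding cells and less RNA per cell cannot be told apart.

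Amino acid transporters were the list with the most even shift. All 11 members tested lay below 0, as did 50.3% of all genes, with a median log2 fold change of -0.38. Of the 11, 5 fell, beside 0.16% of all genes: SLC6A9, SLC1A4, SLC7A5, SLC3A2 and SLC1A5. The gene lists were chosen with earlier results of these data known, so the calls inside them are a description. SLC6A9, which carries glycine, had 16.8, 18.0 and 17.2 CPM in the A8 with ISRIB libraries, against 65.8, 55.1 and 50.1 CPM in the A8 libraries. The lowest A8 library thus lay far above the highest A8 with ISRIB library, and the replicates with ISRIB were much tighter. The log2 fold change of SLC6A9 was -1.72 (SE 0.10, adjusted p = 1.29e-07), and its level with ISRIB alone was 15.9 and 17.8 CPM, against 25.5, 29.3 and 31.4 CPM with DMSO.

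SLC7A5 and SLC3A2 encode the light and heavy chains of the exchanger that brings in leucine and other large neutral amino acids. SLC7A5 averaged 207 ± 19 CPM with A8 and ISRIB and 316 ± 18 CPM with A8 (SD, n = 3 each), with a log2 fold change of -0.61 (SE 0.09 and adjusted p = 0.00382). Its partner SLC3A2 averaged 177 ± 3.3 CPM with both compounds and 226 ± 10.1 CPM with A8 alone (log2 fold change -0.35, adjusted p = 0.0116). SLC1A5, the main glutamine carrier, fell by 0.34 on the log2 scale, and SLC1A4, a carrier of alanine, serine and cysteine, fell by 0.75. The call of SLC1A4 (adjusted p = 0.0471) was lost in each of the 6 fits without 1 library, with adjusted p up to 0.255, and also without ISRIB alone a (0.101) or b (0.0977). SLC1A5 lost its call without A8 with ISRIB replicate 1 (0.0756) or 2 (0.123) and without A8 replicate 1 (0.144) or 3 (0.0863), and SLC3A2 without A8 with ISRIB replicate 1 (0.0556) or 2 (0.0699) or A8 replicate 1 (0.118).

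The cystine importer SLC7A11 had 7.50, 6.10 and 3.32 CPM with A8 and ISRIB, against 10.9, 15.01 and 10.1 CPM with A8. Its libraries did not overlap, but they spread widely within both groups, and its log2 fold change of -1.08 (SE 0.24) did not pass the test (adjusted p = 0.145). The other uncalled members, the cationic amino acid carriers SLC7A1 and SLC7A3, the leucine carrier SLC43A1 and the glutamine carriers SLC38A1 and SLC38A2, had log2 fold changes between -0.42 and -0.32. DESeq2 called 1 of them, SLC43A1 (adjusted p = 0.0154).

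Enzymes that make amino acids and one-carbon units formed the list with the most calls, 7 of 15, all lower, beside 0.16% of all genes. The median log2 fold change over the 15 was -0.46. PCK2, which makes phosphoenolpyruvate inside mitochondria, had 23.5, 22.5 and 25.1 CPM in the A8 with ISRIB libraries, against 60.3, 50.4 and 41.7 CPM in the A8 libraries. The A8 values were spread over a wide range and all lay above those with ISRIB, which were close together. The log2 fold change of PCK2 was -1.10 (SE 0.10, adjusted p = 1.65e-05).

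PSAT1, the aminotransferase of serine synthesis, had 77.5, 79.2 and 77.7 CPM with A8 and ISRIB, against 143.7, 135.0 and 130.3 CPM with A8. All 3 libraries with ISRIB lay within 2 CPM of each other and well below the lowest A8 library. Its log2 fold change was -0.80 (SE 0.06, adjusted p = 1.49e-06). Asparagine synthetase, ASNS, had 152, 147 and 150.5 CPM with both compounds, against 280.2, 242 and 249 CPM with A8, and again the groups were far apart. The log2 fold change of ASNS was -0.78 (SE 0.07, adjusted p = 5.18e-06).

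CTH, which makes cysteine from cystathionine, averaged 16.4 ± 1.7 CPM with both compounds and 30.6 ± 2.9 CPM with A8 (SD, n = 3 each), with a log2 fold change of -0.90. The mitochondrial folate enzymes ALDH1L2 and MTHFD2 fell by 0.77 and 0.52 on the log2 scale, and the alanine aminotransferase GPT2 fell by 0.46. Of the other serine enzymes, PSPH, which releases serine, was at -0.52 (adjusted p = 0.201) and PHGDH, the entry enzyme of the pathway, at -0.22 (adjusted p = 0.403). SHMT2, which passes the one-carbon unit of serine to folate in mitochondria, was at -0.29 (adjusted p = 0.133). PSPH and SHMT2 were called by the DESeq2 Wald test, as was MTHFD1L, another mitochondrial folate enzyme (-0.25, adjusted p = 0.0419 in DESeq2 and 0.231 in edgeR). The proline enzyme ALDH18A1 and the aspartate aminotransferase GOT1 were at 0.00 and 0.01, the 2 members not below 0, with a sign that turned when single libraries were left out.

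**Figure D2:**
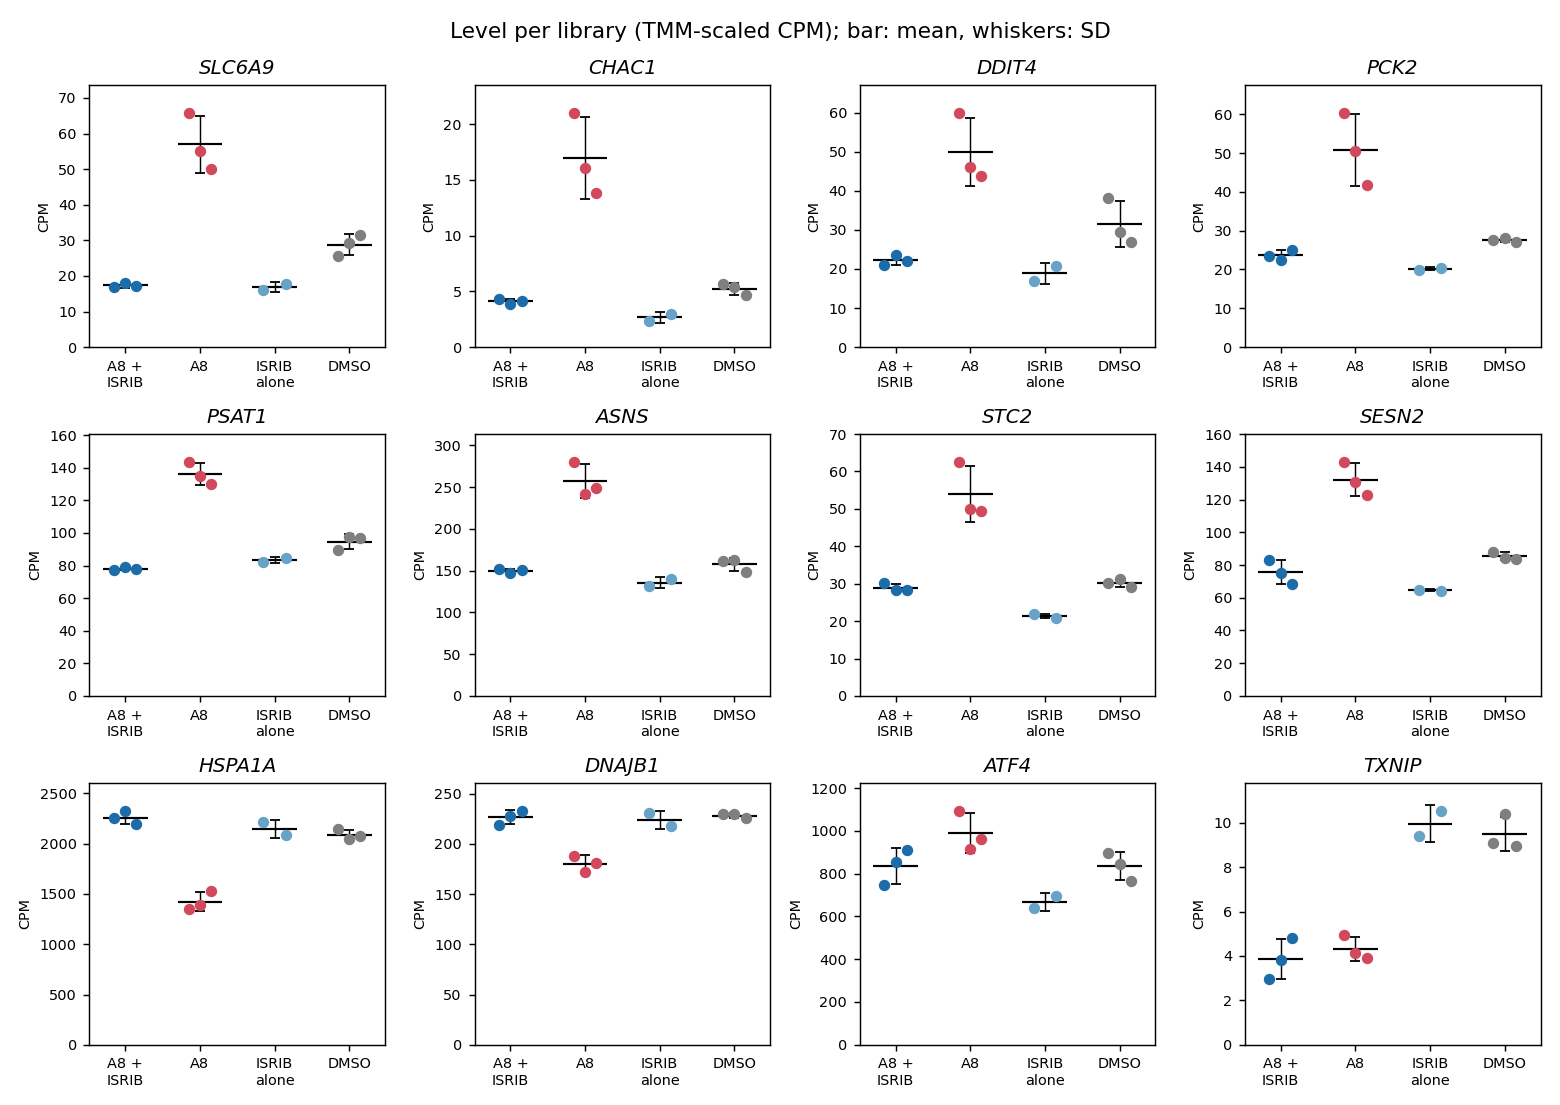
Levels in CPM of 12 genes in each library, by group, from left to right A8 with ISRIB, A8, ISRIB alone and DMSO; the horizontal bar is the mean and the whiskers the SD. In SLC6A9, CHAC1, DDIT4, PCK2, PSAT1, ASNS, STC2 and SESN2 the A8 libraries stand above all others, in HSPA1A and DNAJB1 they stand below, ATF4 differs little between A8 with ISRIB and A8, and TXNIP is low in both A8 groups.

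CHAC1, which cleaves glutathione and is a classical target of ATF4 and CHOP, showed the steepest fall of any called gene. It had 4.29, 3.86 and 4.16 CPM with A8 and ISRIB, against 20.99, 16.04 and 13.8 CPM with A8. The A8 libraries differed among themselves more than those with ISRIB, and the groups were far apart. Its log2 fold change was -2.05 (SE 0.15, adjusted p = 1.49e-06). CHAC1 was the 1 call among the 7 tested members of the glutathione list, beside 0.16% of all genes called lower. The median of the list was -0.03. CHAC2, a related cyclotransferase, was at -0.16 (adjusted p = 0.932), and GCLC and GCLM, the subunits of the enzyme that starts glutathione synthesis, were at 0.02 and -0.03.

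The regions just upstream of the called genes were searched for the site that ATF4 binds together with C/EBP proteins (letters TGATGNAAN, both strands) in windows of 250 bases before the annotated start, from RefSeq (GRCh38.p14). Of the 25 genes that fell, 20 matched a window, and 3 of these 20 held the motif (15%), beside 867 of 27305 windows in all (3.175%). The 3 were CHAC1 (chr15:40953221-40953470, plus strand), ASNS (chr7:97872409-97872658, minus strand) and HERPUD1 (chr16:56931892-56932141, plus strand). Their windows are shown because they stand beside genes that moved together, with the matched letters in capitals, which begin 210, 68 and 177 bases before the start. A match is a description of the letters and not of binding, and a window without one says nothing about the factor.
CHAC1: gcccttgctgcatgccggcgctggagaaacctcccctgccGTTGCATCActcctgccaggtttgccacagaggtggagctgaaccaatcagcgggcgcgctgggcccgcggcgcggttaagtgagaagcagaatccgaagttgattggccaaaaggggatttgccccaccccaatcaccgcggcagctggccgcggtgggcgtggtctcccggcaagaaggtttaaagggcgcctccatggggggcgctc
ASNS: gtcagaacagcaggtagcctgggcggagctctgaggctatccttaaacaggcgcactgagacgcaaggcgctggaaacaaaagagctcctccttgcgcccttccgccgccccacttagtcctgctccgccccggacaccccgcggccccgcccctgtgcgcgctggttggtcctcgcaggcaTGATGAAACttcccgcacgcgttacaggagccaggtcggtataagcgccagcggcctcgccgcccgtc
HERPUD1: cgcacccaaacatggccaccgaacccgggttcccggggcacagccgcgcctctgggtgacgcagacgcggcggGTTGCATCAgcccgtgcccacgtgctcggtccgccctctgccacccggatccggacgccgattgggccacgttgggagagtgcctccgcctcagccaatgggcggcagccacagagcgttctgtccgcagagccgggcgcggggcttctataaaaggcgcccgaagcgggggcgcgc

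Inhibitors of mTORC1, the kinase complex that drives growth, were split. Of the 8 members, 2 fell, beside 0.16% of all genes. DDIT4, which acts through the TSC complex, had 20.996, 23.5 and 22.1 CPM with A8 and ISRIB, against 59.9, 46.2 and 43.7 CPM with A8, which gives a log2 fold change of -1.17 (SE 0.13 and adjusted p = 0.000157). SESN2, a sestrin that senses leucine, had 83.1, 75.2 and 68.6 CPM with both compounds, against 143, 130.4 and 123 CPM with A8, which gives one of -0.80 (SE 0.07, adjusted p = 1.65e-05). Neither gene had overlapping groups. The 6 other members, including the related SESN1 at -0.12 and SESN3 at -0.06 and the TSC subunits TSC1 at 0.09 and TSC2 at 0.01, were not called, and the median of the 8 was -0.09.

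Of 10 transcription factors and feedback regulators of the response, 2 were called, both lower, beside 0.16% of all genes. NUPR1, a small chromatin-associated stress protein, averaged 0.911 ± 0.172 CPM with A8 and ISRIB and 2.64 ± 0.45 CPM with A8 (SD, n = 3 each), and had a log2 fold change of -1.53 (adjusted p = 0.0161). JDP2, a repressor that dimerises with AP-1 and ATF proteins, had 1.90, 1.79 and 2.35 CPM with both compounds, against 4.66, 3.77 and 4.47 CPM with A8, with a log2 fold change of -1.10 (adjusted p = 0.00641). NUPR1 lost its call without A8 with ISRIB replicate 1 (0.109) or 3 (0.061) or A8 replicate 1 (0.130) or 2 (0.107), and JDP2 lost it without A8 with ISRIB replicate 2 (0.0699) or A8 replicate 1 (0.0564).

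ATF4 itself, which is controlled mainly at translation, had 746, 852 and 908 CPM with A8 and ISRIB, against 1094, 914 and 963 CPM with A8. The groups did not overlap, but replicate 3 of A8 with ISRIB lay just under replicate 2 of A8. The log2 fold change of -0.25 (95% interval -0.42 to -0.07) did not pass the test (adjusted p = 0.601). ATF3, an early partner of ATF4, was at -0.43 (adjusted p = 0.488), DDIT3, which encodes CHOP, at -0.40 (adjusted p = 0.554), TRIB3, a pseudokinase that restrains ATF4, at -0.34 (adjusted p = 0.523) and CEBPB at -0.19 (adjusted p = 0.852). DDIT3 had 4.18, 4.25 and 4.13 CPM with both compounds, against 6.09, 5.47 and 5.03 CPM with A8, without overlap. ATF5, another factor under translational control, was at 0.13 (adjusted p = 0.916). PPP1R15A, the eIF2 phosphatase subunit that closes the feedback loop, was at 0.00 with a 95% interval of -0.20 to 0.21, and its sign turned without A8 with ISRIB replicate 3 (-0.07) and without A8 replicate 2 (-0.05) or 3 (-0.06). Over this list the median log2 fold change was -0.32.

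Cytosolic aminoacyl-tRNA synthetases, which charge tRNAs, had 4 calls among 20, all lower, beside 0.16% of all genes, and a median log2 fold change of -0.12. CARS, for cysteine, had 69.0, 78.1 and 66.9 CPM with A8 and ISRIB, against 102.6, 104 and 100.4 CPM with A8, and fell by 0.52 (SE 0.07, adjusted p = 0.00112). The methionine enzyme MARS fell by 0.33, the tyrosine enzyme YARS by 0.31 and the glycine enzyme GARS by 0.30. These were small changes that lost their calls easily: MARS had an adjusted p of up to 0.118 and YARS of up to 0.166 without A8 with ISRIB replicate 2, and GARS one of 0.408 without that library. All 3 calls were also lost without A8 with ISRIB replicate 1 (0.0556, 0.0556 and 0.126) and without A8 replicate 1 (0.114, 0.145 and 0.333), that of YARS also without A8 replicate 2 (0.114), and that of GARS also without A8 replicate 3 (0.192). GARS lost its call too without ISRIB alone a (0.0767) or b (0.0878) or DMSO replicate 2 (0.101), which enter this contrast only through the scaling and the estimate of the spread. Among the 16 uncalled members, AARS, for alanine, was at -0.24 (adjusted p = 0.166) and TARS, for threonine, at -0.22 (adjusted p = 0.333), both called by DESeq2 (adjusted p = 0.00862 and 0.0466), and the histidine enzyme HARS was at 0.07. None of the 17 mitochondrial synthetases was called, and their median was -0.004.

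STC2, a secreted glycoprotein induced in stressed cells, was the 1 call among the 7 secreted factors tested, beside 0.16% of all genes called lower. It had 30.1, 28.3 and 28.4 CPM with A8 and ISRIB, against 62.6, 49.99 and 49.5 CPM with A8, with no overlap, and fell by 0.90 (SE 0.09, adjusted p = 2.13e-05). Of the 8 listed factors 7 passed the filter on low counts. Their median log2 fold change of -0.90 is the value of STC2 itself. The members below it, FGF21, INHBE and ADM2, had low levels and were not called in edgeR. ADM2, a peptide of the adrenomedullin family, averaged 0.539 ± 0.120 CPM with both compounds and 1.46 ± 0.45 CPM with A8 (SD, n = 3 each), which did not pass (adjusted p = 0.145) but was called by DESeq2 (adjusted p = 0.0447). The hormone FGF21 and the activin subunit INHBE stayed below 0.6 CPM in every library, with few counts behind them, and GDF15, a stress cytokine, was at 0.35 with a 95% interval of -0.75 to 1.44.

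The remaining genes that fell were HERPUD1, IFRD1 and TSC22D3. HERPUD1, which helps to clear misfolded proteins from the endoplasmic reticulum, had 59.9, 59.6 and 62.1 CPM with A8 and ISRIB, against 78.0, 76.9 and 72.7 CPM with A8, a fall of 0.33. IFRD1, a transcriptional coregulator, had 27.4, 28.8 and 25.7 CPM with both compounds, against 43.6, 34.98 and 38.0 CPM with A8, a fall of 0.51. TSC22D3, a leucine zipper protein induced by glucocorticoids, fell by 0.51 as well. IFRD1 and TSC22D3 belonged to none of the gene lists. The call of IFRD1 was lost without A8 replicate 1 (0.114). HERPUD1 and TSC22D3 each lost their calls in 4 of the 6 fits, at adjusted p up to 0.214 without A8 with ISRIB replicate 2 and up to 0.255 without A8 replicate 1, that of TSC22D3 also without ISRIB alone a (0.0688), and both also without ISRIB alone b (0.0508 and 0.0737) or DMSO replicate 2 (0.0547 and 0.0731).

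The 3 genes that rose with ISRIB in edgeR were all cytosolic heat shock chaperones. DESeq2 called these and 5 others higher (ZNF703, PAK4, MVD, CAMSAP3 and SF3A2, at 0.22 to 0.28), none of them in the heat shock list or any other. HSPA1A, the inducible HSP70, had 2257, 2329 and 2196 CPM with A8 and ISRIB, against 1350.4, 1392 and 1532 CPM with A8. It had 2212 and 2088 CPM with ISRIB alone and 2144, 2049.8 and 2078 CPM with DMSO, so that the A8 libraries were the low ones among all 11. The log2 fold change was 0.67 (SE 0.06, adjusted p = 1.65e-05). HSPA1B, a near-identical copy of HSPA1A with which it can share reads, had 2904, 3057 and 2872 CPM with both compounds, against 1774, 1786 and 1979 CPM with A8, and also rose by 0.67, so that these 2 symbols may not be separate observations.

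DNAJB1, the HSP40 that delivers clients to HSP70, had 219, 228 and 233 CPM with A8 and ISRIB, against 188, 172 and 181 CPM with A8. The groups did not overlap, and DNAJB1 rose by 0.33 (adjusted p = 0.0152), a call lost without A8 with ISRIB replicate 2 (0.118) and without A8 replicate 2 (0.143) or 3 (0.0901). Over the heat shock list 20 of 21 members lay above 0, as did 7741 of all 15591 genes tested. The median of the list was 0.09, beside 0.06 with ISRIB alone, and its median difference between the 2 effects was 0.007. The HSP70 cofactor BAG3 averaged 168 ± 14 CPM with both compounds and 139 ± 5.8 CPM with A8 (SD, n = 3 each), at 0.28 (adjusted p = 0.267), and HSPA8, the constitutive HSP70, was at 0.18 (adjusted p = 0.692). HSPH1, the member below 0, was at -0.01, and its sign turned under several alternatives.

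The same windows of 250 bases were searched for paired heat shock units (letters GAANNTTC and TTCNNGAA, both strands). HSPA1A (chr6:31815293-31815542, plus strand) and HSPA1B (chr6:31827488-31827737, plus strand) each held 1 match, which begins 106 and 105 bases before the start, and DNAJB1 held none. Of all windows 11.75% held a match, as did 3 of the 20 windows of genes that fell. The windows of HSPA1A and HSPA1B are shown because these genes rose together, with the matched letters in capitals, and they are identical at 235 of 249 aligned bases (94.38%).
HSPA1A: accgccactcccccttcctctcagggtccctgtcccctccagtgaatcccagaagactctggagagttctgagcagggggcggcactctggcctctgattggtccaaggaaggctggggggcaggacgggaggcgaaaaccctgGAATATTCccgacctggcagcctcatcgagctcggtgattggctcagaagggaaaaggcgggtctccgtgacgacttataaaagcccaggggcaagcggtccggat
HSPA1B: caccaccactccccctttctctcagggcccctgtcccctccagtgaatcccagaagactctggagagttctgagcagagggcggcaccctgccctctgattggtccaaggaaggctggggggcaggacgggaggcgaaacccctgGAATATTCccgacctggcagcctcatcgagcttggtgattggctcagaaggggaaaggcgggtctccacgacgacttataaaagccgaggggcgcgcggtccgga

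**Figure D3:**
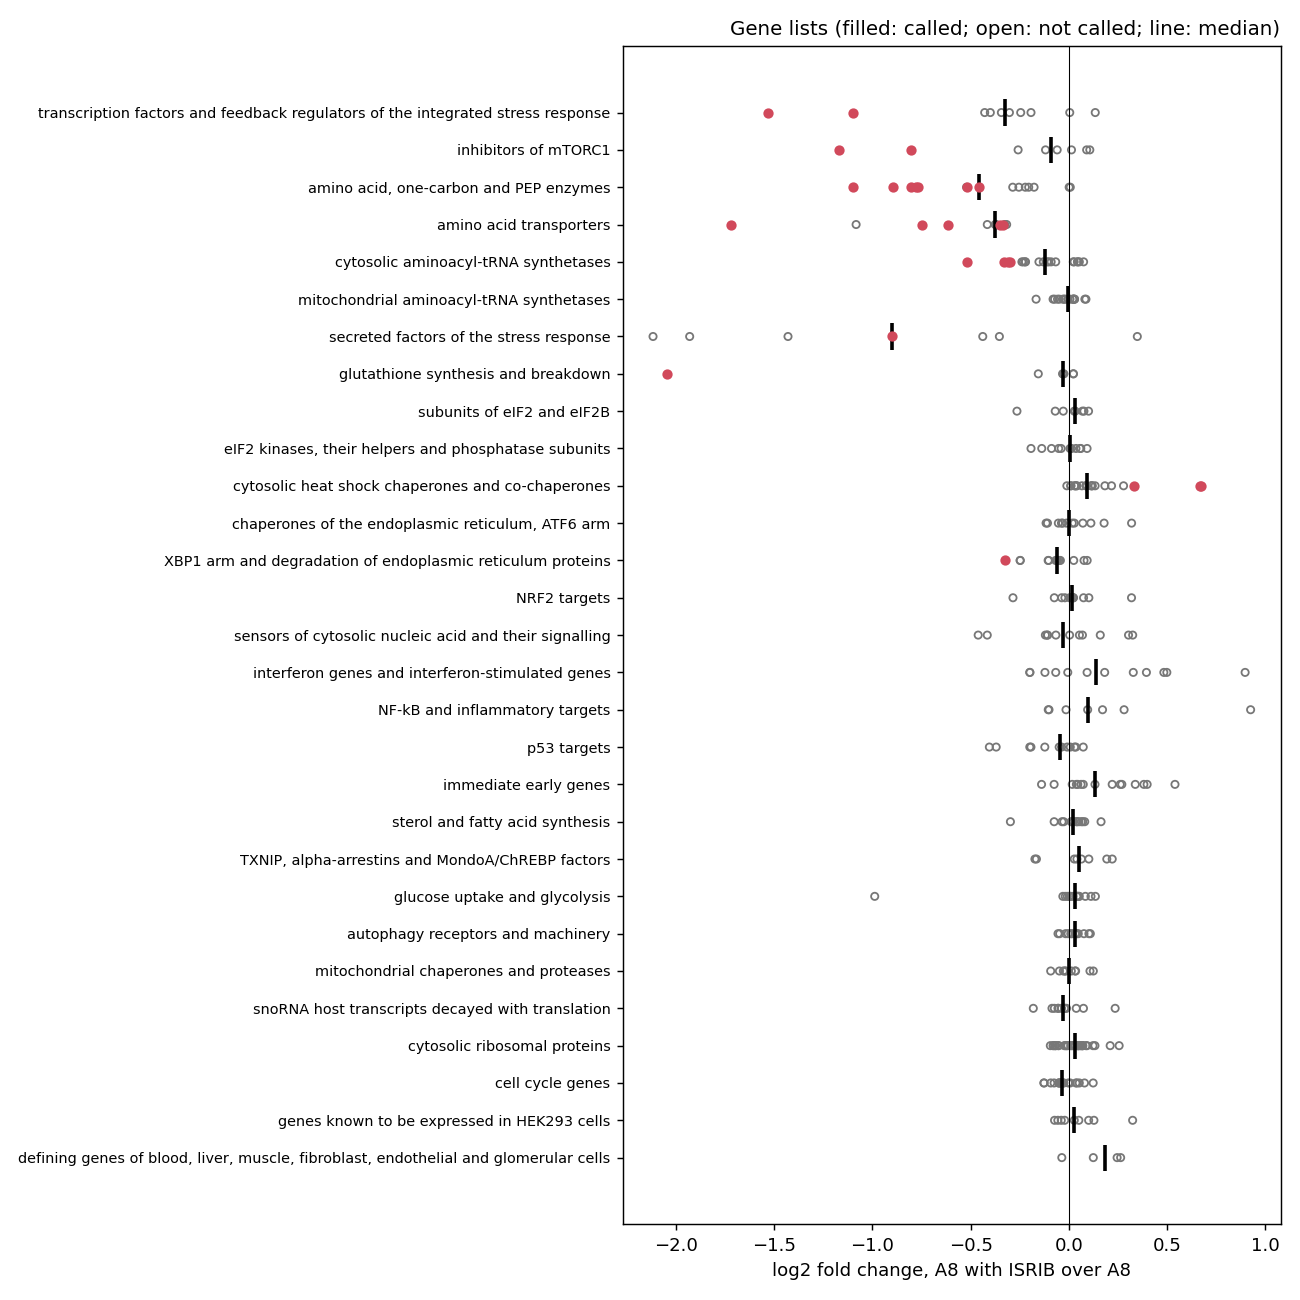
Log2 fold changes of A8 with ISRIB over A8 for the tested members of each gene list, with called genes filled, uncalled genes open and the list's median as a vertical line. Called members lay mostly in the lists of amino acid enzymes (7 of 15), amino acid transporters (5 of 11), cytosolic synthetases (4 of 20) and heat shock chaperones (3 of 21). Most other lists centre near 0. Over all genes tested 0.16% were called lower and 0.0192% higher, and the lists were chosen with earlier results of these data known.

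Lists upstream of and beside the response had no calls, apart from HERPUD1. None of the 8 tested subunits of eIF2 and eIF2B, the complex that ISRIB binds, was called, with a median of 0.03 and a range of -0.26 for EIF2S2 to 0.10 for EIF2B3. The 11 eIF2 kinases, their helpers and phosphatase subunits had a median of 0.01. In the endoplasmic reticulum, the 12 chaperones of the ATF6 arm had a median of 0.002, with HSPA5, the BiP chaperone, at 0.03 (adjusted p = 0.993), a sign that turned without A8 with ISRIB replicate 3 (-0.02) or A8 replicate 1 (-0.03). HERPUD1 was the single call among 13 genes of the XBP1 arm and protein disposal, beside 0.16% of all genes called lower. XBP1 itself was at -0.25 (adjusted p = 0.388).

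RIG-I, encoded by DDX58 and named in the series title, had 2.09, 2.89 and 2.29 CPM with A8 and ISRIB, against 2.80, 3.40 and 3.50 CPM with A8. The groups overlapped, and the log2 fold change of -0.42 had a 95% interval of -0.86 to 0.03 (adjusted p = 0.852). None of the 12 tested sensing and signalling genes was called (median -0.03). Of 26 interferon genes and interferon-stimulated genes, 12 passed the filter on low counts and none was called. Their median was 0.14, with a range of -0.20 to 0.90. IFNB1 had 0 counts in every library, which allows up to 0.0837 to 0.0939 CPM in the 6 libraries (3 counts, counting error only). The 7 tested NF-kB targets had no call, a median of 0.10 and a range of -0.11 to 0.92. None of the 12 NRF2 targets, 12 p53 targets, 15 sterol genes, 35 ribosomal protein genes or 19 cell cycle genes was called either. The same holds for 8 genes of TXNIP, other arrestins and MondoA factors, 16 of glucose uptake and glycolysis, 13 of autophagy, 10 mitochondrial chaperones and proteases, and 12 snoRNA host genes. The 15 immediate early genes had 13 members above 0, a median of 0.13 and no call, with JUNB at 0.40 (adjusted p = 0.281).

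TXNIP, an arrestin that limits glucose uptake, was low in both groups that received A8. It had 2.98, 3.83 and 4.79 CPM with A8 and ISRIB, against 4.93, 4.13 and 3.91 CPM with A8, and these groups overlapped (log2 fold change -0.17, adjusted p = 0.95, 95% interval -0.50 to 0.17). With ISRIB alone it had 9.39 and 10.5 CPM, and with DMSO 9.10, 10.4 and 8.97 CPM. TXNIP was one of the 3 genes called between A8 with ISRIB and DMSO (0.0192% of genes, all lower), at -1.30 (adjusted p = 0.00277, and 0.0557 without A8 with ISRIB replicate 2).

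Set beside DMSO, the genes that fell lay near or below the vehicle level when ISRIB was added to A8. The median log2 level of the 25 genes relative to the DMSO mean was -0.10, -0.11 and -0.17 in the 3 A8 with ISRIB libraries. It was 0.59, 0.52 and 0.44 in the 3 A8 libraries, and -0.18 and -0.17 in the 2 ISRIB alone libraries. In 12 of the 25, among them CHAC1, SLC6A9, DDIT4, PCK2, SESN2 and PSAT1, every A8 with ISRIB library lay below every DMSO library, as did 6.57% of all genes, while 5.79% lay wholly above. SLC6A9 was the 1 of these called against DMSO, at -0.73 (adjusted p = 0.0168), a call lost without A8 with ISRIB replicate 1 (0.109) or 2 (0.128) or DMSO replicate 2 (0.182) or 3 (0.0789). The third gene called lower against DMSO was TPRA1, at -0.43 (adjusted p = 0.036). HSPA1A and HSPA1B lay above every DMSO library with A8 and ISRIB, by 0.11 and 0.12 on the log2 scale, and were not called there. The comparison with DMSO and the comparison with A8 share the A8 with ISRIB libraries. The 25 genes were chosen on low values in these and high values in the A8 libraries. That choice favours the count of 12 and the medians of both groups, so the medians are a description and nothing is read from the count.

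**Figure D4:**
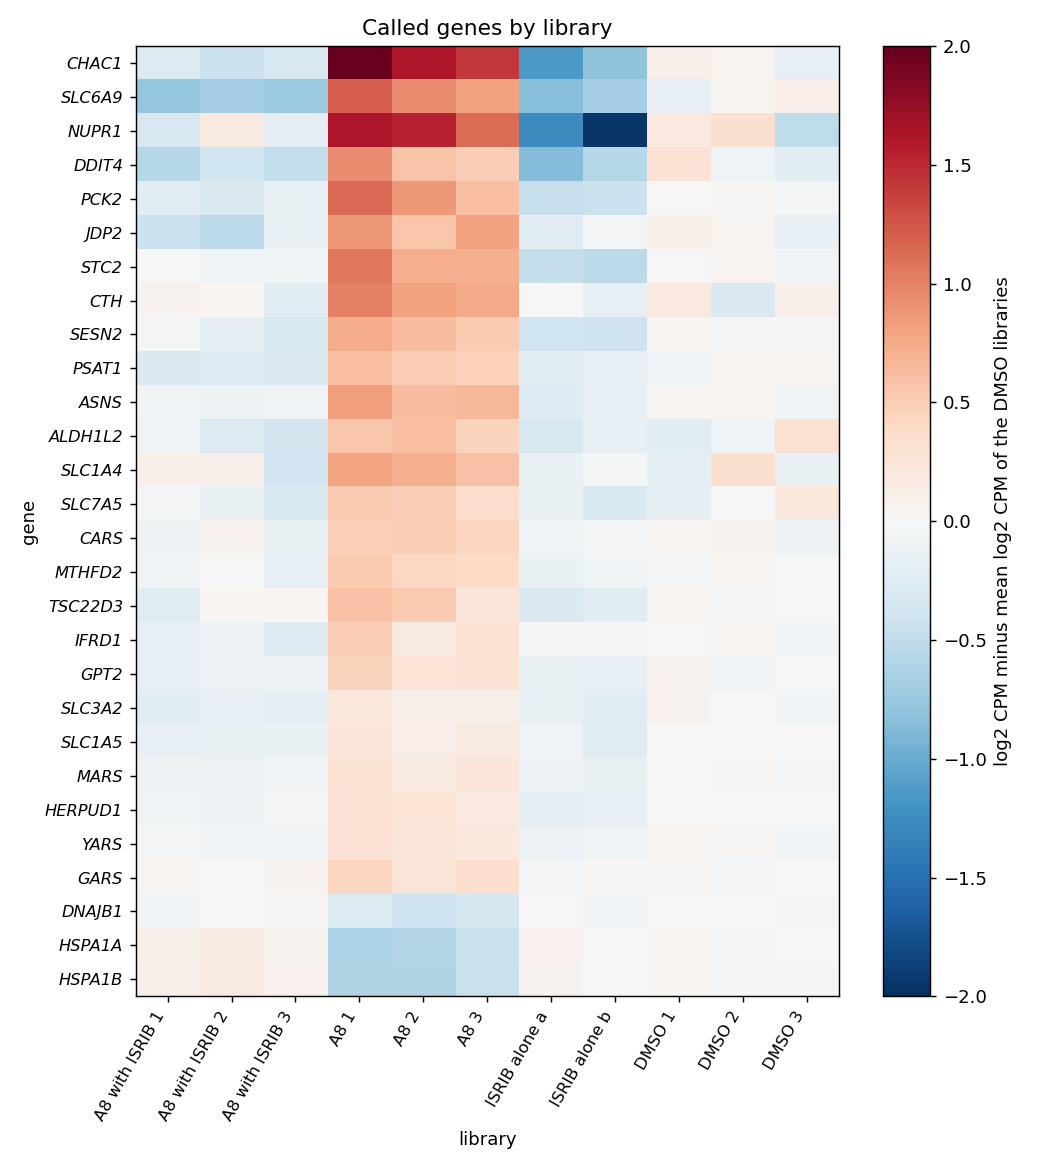
Colours give the log2 CPM of each called gene in each library minus its mean log2 CPM in the DMSO libraries, with red above and blue below. The 25 genes that fell are red in the 3 A8 libraries and near white or blue in the A8 with ISRIB and ISRIB alone libraries. The 3 heat shock genes show the opposite. All were chosen on the A8 with ISRIB and A8 libraries, which favours this pattern there.

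Whether ISRIB did the same without A8 was asked with ISRIB alone against DMSO, which shares no library with the comparison above. No gene was called there (0% of genes) in edgeR, where 1494 genes had an unadjusted p under 0.05, and DESeq2 called 1 higher and 33 lower. All 25 genes that fell in A8-treated cells were also below 0 with ISRIB alone, as were 49.5% of all genes. The 25 had a median of -0.18 and a range of -1.61 to -0.01. In 24 of the 25 the size was larger with A8, the exception being NUPR1, at -1.53 with A8 and -1.61 without. The choice of these genes on their fall with A8 favours a larger size there, so nothing is read from that count. Over these 28 called genes Pearson's r between the log2 fold changes with and without A8 was 0.748 and Spearman's rho 0.764, while over all 15591 genes they were 0.035 and -0.012. The called genes were chosen on one of the axes and the points share libraries and depth, so these values describe the 28 genes only.

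The difference between the ISRIB effects with and without A8 was called for 4 genes (0.0257% of genes). SLC6A9 fell by 1.72 with A8 and was at -0.77 (adjusted p = 0.0897) without it, a difference of -0.95 (95% interval -1.28 to -0.62, adjusted p = 0.0443). PSAT1 fell by 0.80 with A8 and was at -0.18 without it, a difference of -0.62 (95% interval -0.81 to -0.43, adjusted p = 0.0243). HSPA1A was at 0.67 with A8 and 0.04 without it, and HSPA1B at 0.67 and 0.04, with differences of 0.63 and 0.64 (adjusted p = 0.0243 each). CHAC1, at -2.05 with A8 and -0.97 without, differed by -1.08 (95% interval -1.59 to -0.57), which did not pass the test (adjusted p = 0.241). The 95% interval of the difference excluded 0 in 20 of the 25 genes that fell, and 8.48% of all genes had an unadjusted p under 0.05 for it. The 25 were chosen on the fall with A8, which enters this difference, so nothing is read from that count. These 4 calls held together without A8 with ISRIB replicate 3, A8 replicate 3 or DMSO replicate 3. Without A8 with ISRIB replicate 1 or 2, A8 replicate 1 or 2, ISRIB alone a or b, or DMSO replicate 2, none of the 4 held, with adjusted p of up to 0.486 for SLC6A9 and 0.356 for the other 3, both without ISRIB alone b. Without DMSO replicate 1 only PSAT1 held (0.0467).

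**Figure D5:**
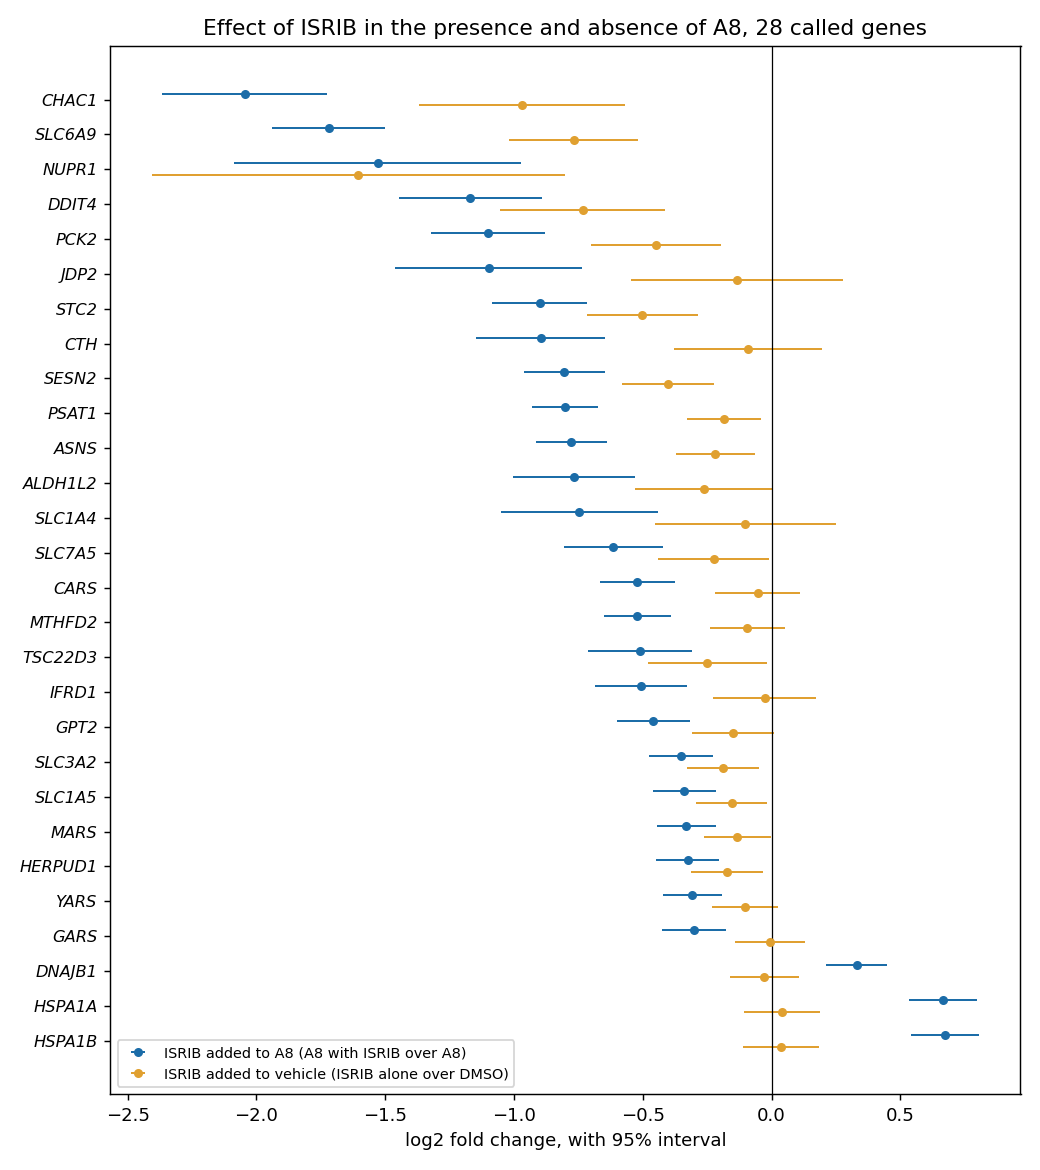
Log2 fold changes with 95% intervals of the 28 called genes for A8 with ISRIB over A8 (blue) and for ISRIB alone over DMSO (orange). The 25 genes that fell lie left of 0 in both, farther left with A8 in all but NUPR1. Some of their orange intervals include 0, such as those of CTH and GARS, and others lie wholly below 0, such as those of CHAC1 and SLC6A9. The 3 heat shock genes lie right of 0 with A8 and near 0 without it. The 28 genes were chosen on the blue comparison, which favours larger sizes there.

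The content of G and C bases moved with these effects across all genes. Spearman's rho between transcript GC content and the log2 fold change, over 14375 genes with a match, was 0.151 for A8 with ISRIB against A8, -0.486 for ISRIB alone against DMSO, and 0.466 for the difference between them. With the GC trend removed from each library, an alternative chosen after seeing the data, 3 genes rose and 25 fell with A8, while of the 4 differences only that of SLC6A9 kept its call (adjusted p = 0.0423). The part of GC content in the results was not tested beyond this.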

How the data were processed

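Polyadenylated RNA of 11 HEK293T cultures was sequenced from strand-specific libraries, per the labels' protocols. The deposited values are raw counts for 27671 gene symbols. The submitters' processing notes name the build GRCh37 and the tools DESeq and DESeq2. The aligner, counter and strand setting used by the submitters are not stated in the labels. The deposited tables of the authors' own comparisons hold none between A8 with ISRIB and A8 and are not used here.

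Counts were tested with edgeR 4.0.16 in R 4.3.3 after filterByExpr and TMM scaling. All 11 libraries entered 1 quasi-likelihood fit of group means, so that the 2 libraries of ISRIB alone, called a and b, shared the estimate of the spread. The contrasts were A8 with ISRIB minus A8, ISRIB alone minus DMSO, A8 with ISRIB minus DMSO, and the difference between the first 2. Benjamini-Hochberg adjustment ran over 15591 genes. SE and 95% intervals come from the quasi-likelihood fit. Levels are TMM-scaled CPM. The script was tested on simulated data.

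Genes chosen in advance for naming were every called gene, 10 stress and antiviral genes, and the 2 largest rises and falls of each list. Others were chosen after their values were seen: the further amino acid enzymes, carriers and synthetases, BAG3, the 5 genes called higher by DESeq2 alone, SESN1, SESN3, TSC2, the eIF2 and eIF2B subunits, and the overlapping symbols of the closing section. ADM2, HSPA8, GCLM, TPRA1 and IFNB1 were also named outside these rules. Some list members that the rules chose are not named in the results. Among them are SLC2A3 (log2 fold change -0.99), IKBKE (-0.46) and SRXN1 (0.32), none of these called. The comparison and the gene lists were chosen with earlier results of these data known. Replicates differed by more than sampling noise. Same-numbered A8 with ISRIB and A8 libraries did not deviate together (correlations of -0.09, 0.02 and 0.01), so numbers were not used as pairs. The upstream windows come from RefSeq on GRCh38.p14, another build than that of the counts, and GC content from GENCODE transcripts. Alternatives were DESeq2 1.42.0 and its size factors, other count filters, a robust fit, a fit of only the 2 groups, a replicate block, a minimum log2 fold change of 0.5, each library left out, and removal of the GC trend. Intervals and floors for counts of 0 cover counting error only.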

Additional observations from a re-analysis of the deposited data

Results flagged for a closer look

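The effect of ISRIB was called different between A8-treated and vehicle-treated cells, by a test of the difference itself, for 4 genes (0.0257% of genes). For SLC6A9 the log2 fold change was lower by 0.95 with A8 (difference -0.95), and for PSAT1 by 0.62 (difference -0.62). HSPA1A and HSPA1B differed in the other direction, by 0.63 and 0.64 (adjusted p = 0.0243 each). HSPA1A and HSPA1B can share reads and may not be separate observations. All 4 calls depended on single libraries, which are given beside the comparison, and with the GC trend removed only that of SLC6A9 held.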

How the results depend on the processing

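The main counts were 3 genes higher and 25 lower with ISRIB added to A8. They were 3 and 25 with DESeq2 size factors, a filter of 50 counts, a robust fit or the GC trend removed, 3 and 18 with only the 2 groups in the fit, and 2 and 18 with a minimum log2 fold change of 0.5. They were 13 and 41 with no filter on low counts, and 8 and 41 with the DESeq2 Wald test, which called all 28 genes. Leaving out 1 library gave 2 to 4 higher and 14 to 29 lower. With the replicate block, in a fit of the 2 groups, 4 genes rose and 17 fell; not every library deviated most like the one of its own number.

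The difference of the ISRIB effect had 2 calls each way. It had 18 higher and 8 lower without a filter, 2 and 1 with the 50-count filter, 34 and 9 with DESeq2, 0 and 1 with the GC trend removed, and 0 to 3 and 0 to 3 without 1 library. ISRIB alone against DMSO had 0 calls, but 3 and 11 without a filter, 1 and 33 with DESeq2, and 0 to 1 and 0 to 3 without 1 library. The causes were not tested.

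Of 1770 values of single genes under the alternatives, 18 changed sign, none of a called gene. Without 1 library, log2 fold changes ranged from -0.072 to 0.129 for PPP1R15A, -0.0274 to 0.0716 for HSPA5, -0.0192 to 0.0211 for ALDH18A1, -0.0365 to 0.0487 for GOT1, -0.0776 to 0.0423 for HSPH1, -0.174 to 0.0196 for HNRNPUL2-BSCL2 and -0.976 to 0.011 for NBL1. HSPH1 was at 0.0269 with the GC trend removed. Medians of gene lists moved by more than the spread in 39 cases and by less in 512.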

Other observations

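Several of the larger uncalled differences involve gene symbols that overlap on the genome, and were chosen after their values were seen. NBL1 had 14.7, 14.9 and 0 CPM in the A8 with ISRIB libraries, against 15.9, 14.1 and 14.1 CPM with A8, and was at 0 in both ISRIB alone libraries. The readthrough symbol MINOS1-NBL1 was the reverse, with 3.93, 4.00 and 18.9 CPM with A8 and ISRIB, against 4.26, 3.82 and 3.77 CPM with A8, and 17.5 and 18.1 CPM with ISRIB alone. Summed, the 2 symbols had 18.7, 18.9 and 18.9 CPM with A8 and ISRIB, against 20.1, 18.0 and 17.9 CPM with A8. With DMSO, NBL1 had 18.6, 14.3 and 15.1 CPM. The sums were alike where the single symbols were not. Every library with NBL1 at 0 had received ISRIB, but replicates 1 and 2 of A8 with ISRIB were not at 0. The treatment groups alone were thus not followed. Replicate 3 of A8 with ISRIB, at 0 here, is the library that stood apart from its replicates, and the cause was not tested.

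BSCL2, which shares its locus with the readthrough symbol HNRNPUL2-BSCL2, had 6.61, 6.47 and 7.83 CPM with A8 and ISRIB, against 1.84, 1.76 and 2.21 CPM with A8, and its log2 fold change of 1.85 did not pass the test (adjusted p = 0.600). With ISRIB alone it had 7.16 and 1.54 CPM, and with DMSO 11.4, 1.72 and 1.11 CPM, so libraries of 1 group differed as much as these groups did. HNRNPUL2-BSCL2 averaged 64.0 ± 8.6 CPM with A8 and ISRIB and 67.1 ± 3.7 CPM with A8 (SD, n = 3 each). The signal recognition particle RNAs RN7SL1 and RN7SL2 were at 0.98 and 1.31 (adjusted p = 0.773 and 0.842), with 12.5 and 26.7 CPM in DMSO replicate 3.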
